A study of Mus musculus with 59 samples.

Results

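Catecholamines are made from tyrosine in a chain of enzymes: tyrosine hydroxylase (Th) makes L-DOPA in the rate-limiting step, aromatic amino acid decarboxylase (Ddc) turns it into dopamine, dopamine beta-hydroxylase (Dbh) turns dopamine into noradrenaline, and Pnmt turns noradrenaline into adrenaline. This account follows those genes together with Gch1, whose enzyme starts the synthesis of tetrahydrobiopterin, the cofactor Th needs, with Slc18a2, the carrier that loads amines into vesicles, with Slc6a2 and Slc6a3, which take up noradrenaline and dopamine at the cell surface, and with Maoa, which breaks amines down. The 9 members were the rows of the count table whose Ensembl identifier carried these symbols, and all 9 were found among 21935 gene rows. Noradrenaline neurons, and some adrenaline neurons, lie in the nucleus of the solitary tract (NTS) of the brainstem, dopamine neurons lie in the arcuate nucleus (ARC), and the paraventricular nucleus (PVN) of the hypothalamus is a known target of the brainstem fibres. Most mRNA of a neuron stays in or near its cell body, and little of it travels into distant fibres.

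C57BL/6 mice were given 1 intraperitoneal injection, either of IP118/PY115 or of vehicle alone, 4 h before they were killed. The series concerns joint activation of the PYY and GLP-1 receptors, and the comparison asks what this injection does to gene expression in each region. Age, sex, diet and dose are not given in the sources used here, and no genetic change is named for any group. From 10 µm frozen sections, 4 mm2 of each region was captured by laser per animal, and polyA RNA was sequenced in 59 libraries: 10 vehicle and 10 treated of PVN, 9 and 10 of ARC, and 10 and 10 of NTS. Because the labels do not tie libraries to animals, and the regions came from the same animals, tests between regions treat as independent what is partly shared. In dissected tissue, fewer cells of a type and less RNA per cell cannot be told apart.

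Library totals ran from 3964093 to 28510118 counts, with medians of 10491077 in PVN, 10392473 in ARC and 11700301 in NTS. Levels are given as CPM, the count relative to the library total, after scaling of all 59 libraries by the trimmed mean of M-values (TMM). Region markers were found where the labels place them: the summed NTS markers (Phox2a, Gcg, Tlx3, Hoxa5, Hoxb5 and Lmx1b) reached 617 to 929 CPM in NTS libraries and at most 0.645 CPM elsewhere, the PVN list 8646 to 21275 CPM in vehicle PVN libraries, and the ARC list 1575 to 3688 CPM in ARC and 33.8 to 71.8 CPM in NTS. The PVN list also reached 124 to 473 CPM in 5 ARC libraries (vehicle replicates 1, 4 and 9 and treated replicates 9 and 10), against 9.25 to 61.4 CPM in the other 14, and 101 CPM in NTS treated replicate 9, against 1.61 to 4.96 CPM in the other NTS libraries. Some libraries call for caution before any result. The libraries numbered 1 in each group (vehicle replicate 1 and treated replicate 1 of each region) moved the number of genes of the whole table that passed the treatment test: without them PVN had 429 such genes (3.22%) in place of 88, ARC 153 (1.14%) in place of 0, and NTS 162 (1.18%) in place of 0. Whether the treatment labels of these libraries were exchanged was not tested, and every treatment value below rests on the labels as given. Vehicle libraries numbered 5553 to 5555 (PVN) and 5556 to 5557 (ARC) carry numbers apart from the others of their region, with no treated library beside them. Treatment results that turn on these libraries are given with and without them.

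The DNA just before the start sites of Th and Gch1 is shown because the GLP-1 receptor is known to signal through cyclic AMP, and both genes hold the letters of the cyclic AMP response element or its core there. The windows are RefSeq sequence of GRCm38.p6, minus strand, read 5′ to 3′ towards the start site, with capitals on the full element TGACGTCA in Th and on the core TGACG in Gch1. That of Th spans chr7:142900015-142900245, and that of Gch1 chr14:47189414-47189663. For Th only 231 of the 250 bases are printed, since an annotated Th exon covers those nearest the start site. Positions are counted from the start site itself.
Th: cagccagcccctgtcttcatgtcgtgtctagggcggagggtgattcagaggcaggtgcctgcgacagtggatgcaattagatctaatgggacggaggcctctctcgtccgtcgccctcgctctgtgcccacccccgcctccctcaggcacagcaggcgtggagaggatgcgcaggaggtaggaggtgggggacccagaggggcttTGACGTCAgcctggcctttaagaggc
Gch1: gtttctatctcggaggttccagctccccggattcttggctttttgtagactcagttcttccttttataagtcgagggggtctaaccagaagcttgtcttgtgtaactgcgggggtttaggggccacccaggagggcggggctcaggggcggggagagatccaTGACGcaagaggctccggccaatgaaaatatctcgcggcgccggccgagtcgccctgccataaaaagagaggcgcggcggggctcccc
The element in Th begins 45 bases before the RefSeq start site (position -45) and the core in Gch1 at -88. Windows of 250 bases were held for 7 of the 9 members, 8 windows in all, and both strands were searched. The full element was found in 1 of the 8, against 1.55% of 32851 windows of all genes. Its core, which the full element contains, was found in 4 of the 8 (Th, Gch1, Maoa at -209 and Dbh at -222), against 17.77% of all windows. The Dbh window lies wholly within an annotated exon of Dbh, so its match is in exon sequence. The glucocorticoid response element was in 0 of the 8 and in 0.39% of all windows. A match describes letters and shows no binding, and a route from the injection through cyclic AMP was not tested. The windows of Th and Gch1 were picked from those with a match, and that of Maoa is not printed. Pnmt and Slc6a2 had no entry in the table of start sites.

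Each region had its own set of these genes, seen most clearly in the vehicle libraries. Compared per kilobase of exon, the scale on which genes can be set side by side, NTS was led by Dbh (67.9 CPM per kb) and Ddc (60.6), followed by Maoa (33.2) and Th (30.5). ARC was led by Th (51.1), followed by Ddc (21.6), Slc18a2 (13.1), Maoa (13.01) and Slc6a3 (10.1), while Dbh reached 0.584. PVN was led by Th (31.9), Maoa (16.9) and Ddc (9.49), and the carrier Slc18a2 reached 1.74. Thus NTS carried the genes up to noradrenaline with the noradrenaline carrier, ARC the genes up to dopamine with the dopamine carrier, and PVN Th and Ddc with little of either carrier.

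**Figure D1:**
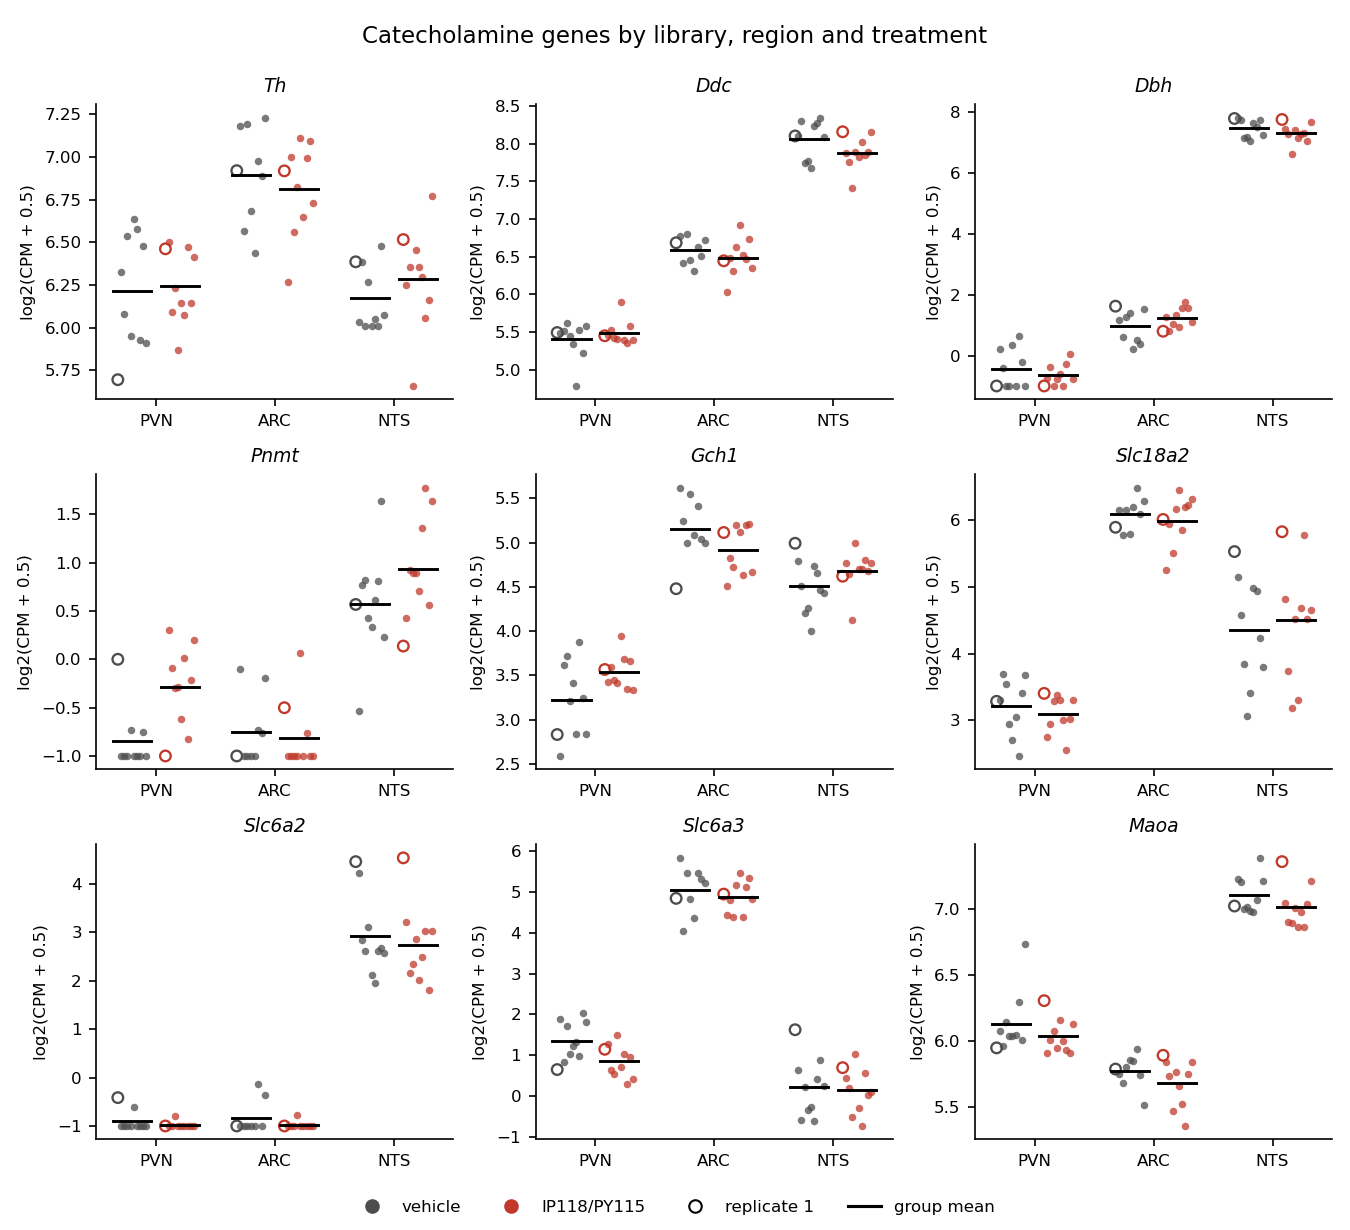
CPM (log axis) of the 9 members in each of the 59 libraries, by region and treatment, with 1 point per library. Dbh, Slc6a2 and Pnmt stand high in NTS, Slc6a3 and Slc18a2 in ARC, and Th spans a narrow range over all 3 regions.

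Th (chr7:142892752-142931128, minus strand, GRCm38) was the most even of the synthesis genes. Its level was 75.5 ± 17.5 CPM (lowest 51.3, median 73.4, highest 99.1) in PVN, 121 ± 23.2 CPM (lowest 86.1, median 121, highest 149) in ARC and 72.2 ± 9.73 CPM (lowest 63.9, median 66.4, highest 88.7) in NTS. The ARC libraries were the higher ones, but the ranges of all 3 regions overlapped. Th was 1.60-fold lower in PVN than in ARC (log2 difference -0.68 ± 0.12, SE, edgeR adjusted p = 3.77e-06) and 1.68-fold higher in ARC than in NTS (0.75 ± 0.12, adjusted p = 2.48e-07). Between PVN and NTS it did not pass (0.07 ± 0.12, 95% interval -0.17 to 0.31, adjusted p = 0.636). In the order ARC, PVN, NTS the last 2 therefore do not differ beyond their spread.

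Ddc (chr11:11814101-11898144, minus strand) is shared by dopamine, noradrenaline and serotonin cells, and it rose from PVN to ARC to NTS. It measured 42.3 ± 6.37 CPM (lowest 27.1, median 44.5, highest 48.9) in PVN, 96.4 ± 11.4 CPM (lowest 78.6, median 98.5, highest 111) in ARC and 270.1 ± 44.02 CPM (lowest 204, median 274, highest 324) in NTS. No range touched another in either treatment. Ddc was 2.29-fold lower in PVN than in ARC (edgeR adjusted p = 2.83e-16) and 2.80-fold lower in ARC than in NTS (adjusted p = 4.55e-21). The antisense gene 1700042O10Rik overlaps it, and since use of strand in the counting is not given in the sources used here, reads of the pair cannot be told apart. Serotonin markers (Tph2, Slc6a4, Fev, Tph1 and Htr1a) summed to 16.9 to 23.9 CPM in the vehicle NTS libraries and 18.6 to 30.2 CPM in vehicle ARC, against a Ddc of 204 CPM or more in NTS. In those NTS libraries Tph2 was at 0.565 to 3.61 CPM and Slc6a4 at 0 to 0.491 CPM, so most of the sum came from the other markers. The part of serotonin cells in the level of Ddc was not tested.

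Dbh (chr2:27165233-27183200, plus strand) set NTS far apart from both hypothalamic regions. It stood at 183 ± 36.7 CPM (lowest 132, median 192, highest 225) in vehicle NTS libraries, at 1.57 ± 0.739 CPM (lowest 0.658, median 1.72, highest 2.58) in ARC, and in PVN at 0 in 5 of the 10 libraries and at up to 1.05 CPM in the others. All NTS libraries lay far above every hypothalamic one. Summed over vehicle libraries, 21770 counts in NTS stood against 24 in PVN, a ratio of 653 (95% interval 439 to 1019, counting error only), and the ratio to ARC was 108 (91.5 to 129). In treated libraries these ratios were 1158 (713 to 2026) and 85.7 (74.7 to 98.7). Within the hypothalamus, Dbh was 5.56-fold lower in PVN than in ARC (edgeR adjusted p = 8.44e-06), with overlapping ranges in vehicle libraries and none in treated ones.

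Pnmt (chr11:98386450-98388181, plus strand), the last enzyme of the chain, was the rarest of the 4. It stood at 1.08 ± 0.629 CPM (lowest 0.190, median 1.004, highest 2.61) in vehicle NTS, and was at 0 in 7 of 10 vehicle PVN and 5 of 9 vehicle ARC libraries. The NTS ranges overlapped those of PVN and ARC at their low end, where single counts decide. Over the vehicle libraries NTS had 131 counts and PVN 10, a ratio of 9.43 (95% interval 4.97 to 20.1, counting error only), and the ratio to ARC was 9.04 (4.76 to 19.3). In treated libraries the ratio was 5.04 (3.54 to 7.37) to PVN, from 236 and 36 counts, and 15.8 (8.66 to 32.05) to ARC, from 236 and 11. Per kilobase, Dbh in NTS exceeded Pnmt there by 67.9 to 0.938 CPM.

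Gch1 (chr14:47153895-47189413, minus strand), the cofactor gene, followed the order ARC, NTS, PVN. It measured 36.1 ± 8.40 CPM (lowest 21.8, median 33.6, highest 48.6) in ARC, 22.6 ± 4.78 CPM (lowest 15.5, median 21.9, highest 31.3) in NTS and 9.21 ± 2.94 CPM (lowest 5.53, median 8.87, highest 14.2) in PVN. PVN lay below both other regions without overlap, and ARC and NTS overlapped. Gch1 was 3.96-fold lower in PVN than in ARC (edgeR adjusted p = 2.11e-19) and 1.60-fold higher in ARC than in NTS in vehicle libraries (adjusted p = 7.39e-06). In treated libraries the latter difference was 1.19-fold and did not pass (adjusted p = 0.0657). The processed pseudogenes Gm49134 and Gm18811 lie inside the gene, so a share of its reads may be split.

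Slc18a2 (chr19:59260896-59296012, plus strand), the vesicle carrier shared by all monoamine cells, was an ARC gene here. It reached 68.7 ± 11.3 CPM (lowest 54.3, median 71.1, highest 89.3) in ARC, 22.9 ± 12.4 CPM (lowest 7.90, median 20.8, highest 45.8) in NTS and 9.09 ± 2.57 CPM (lowest 5.03, median 9.32, highest 12.5) in PVN. The vehicle ARC libraries stood above all vehicle libraries of the other regions, while NTS and PVN overlapped. In treated libraries ARC and NTS overlapped too, with a lowest ARC value of 37.6 CPM and a highest NTS value of 56.4 CPM. The carrier was 7.63-fold lower in PVN than in ARC and 3.06-fold higher in ARC than in NTS (edgeR adjusted p = 2.57e-13 and 1.98e-07). Histamine cells also use this carrier. The histamine markers Hdc and Hrh3 summed to 100.2 to 139 CPM in vehicle ARC libraries, 39.3 to 74.9 CPM in PVN and 23.97 to 45.8 CPM in NTS. Like Slc18a2, these sums were highest in ARC, but their mean was higher in PVN than in NTS (57.7 and 32.9 CPM). The part of histamine cells in the carrier's level was not tested. The antisense gene Gm29261 overlaps Slc18a2.

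The plasma membrane carriers split the regions. Slc6a2 (chr8:92960079-93001667, plus strand), the noradrenaline carrier, stood at 8.42 ± 6.19 CPM (lowest 3.37, median 5.76, highest 21.5) in vehicle NTS. In PVN it had 6 counts in 2 of 10 vehicle libraries and 1 count in the treated ones, and in ARC 7 counts in 2 of 9 and 1 count, so that it was near the limit of detection there. The NTS ratio was 112 to PVN (95% interval 51.3 to 306) and 92.1 to ARC (44.5 to 229.7), counting error only. In treated libraries, where PVN and ARC held 1 count each, the NTS ratios were 781 (139.8 to 30860) and 747 (134 to 29550). Slc6a3 (chr13:73536747-73578672, plus strand), the dopamine carrier, did the opposite: it stood at 34.9 ± 12.9 CPM (lowest 15.99, median 37, highest 56.9) in ARC, 2.17 ± 0.889 CPM (lowest 1.06, median 1.92, highest 3.58) in PVN and 0.807 ± 0.737 CPM (lowest 0.147, median 0.671, highest 2.58) in NTS. Every ARC library exceeded every library of the other regions. Summed counts gave an ARC ratio of 17.4 to PVN (95% interval 14.99 to 20.2) and of 49.8 to NTS (40.5 to 62.1). Slc6a3 was also 2.85-fold higher in PVN than in NTS (edgeR adjusted p = 0.000201) and was the only member to pass in that direction.

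Maoa (chrX:16619698-16687818, plus strand), the breakdown enzyme, was highest in NTS and differed less between PVN and ARC. It measured 138 ± 13.9 CPM (lowest 125, median 132, highest 167) in NTS, 70.4 ± 13.4 CPM (lowest 61.2, median 65.5, highest 106) in PVN and 54.2 ± 4.45 CPM (lowest 45.3, median 54.7, highest 60.9) in ARC. NTS stood above both, and every vehicle PVN library lay above the highest vehicle ARC value. The fold was 1.97 between NTS and PVN and 1.298 between PVN and ARC (edgeR adjusted p = 3.57e-18 and 4.64e-05).

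Counted over the members, 7 of 9 passed between PVN and ARC in vehicle libraries (edgeR adjusted p under 0.05), 1 higher in PVN (Maoa) and 6 lower, where 46% of all 14379 genes passed, 24.8% higher and 21.1% lower. Between PVN and NTS 8 of 9 passed, 1 higher in PVN and 7 lower, against 56.1% of all genes (28.3% and 27.8%). Between ARC and NTS all 9 passed, 4 higher in ARC (Th, Gch1, Slc18a2 and Slc6a3) and 5 lower, against 61.7% (30.2% and 31.5%). Taken without regard to direction, such shares of passing genes are not far above the background. The members' median log2 difference was -1.19, -1.32 and -1.35 in the 3 comparisons, beside 0.01, 0.00 and -0.01 over all genes, and without regard to sign it was 1.19, 1.51 and 1.61, beside 0.23, 0.28 and 0.32. The treated libraries, which share no library with these, gave 8 of 9 each time (48.7%, 58.8% and 63.8% of all genes). The changes of call there were Pnmt, higher in PVN than ARC (1.69 ± 0.66, adjusted p = 0.0295), and Gch1 between ARC and NTS. Ranges without overlap were found for 5, 5 and 6 members in vehicle libraries, where 11.6%, 13.2% and 22.6% of all genes had them.

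**Figure D2:**
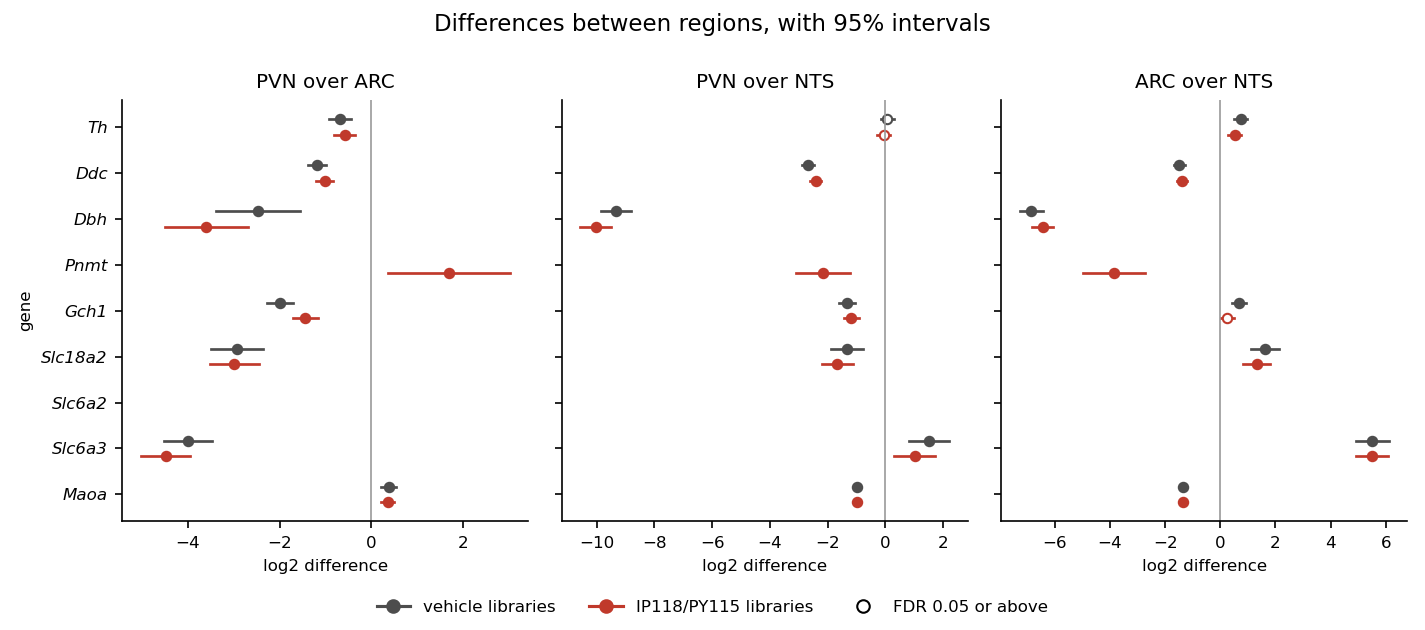
Log2 difference with its 95% interval between regions for each member (edgeR joint fit), vehicle and treated libraries side by side. Contrasts in which a group had 10 or fewer counts in all are left out. Vehicle and treated points lie on the same side of 0 for the members drawn in both, except Th between PVN and NTS (0.07 and -0.06), and Dbh reaches -9.33 there in vehicle libraries.

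Other genes of the pathway also differed between regions, as many genes of the whole table did. Between PVN and ARC, PVN and NTS, and ARC and NTS, 46%, 56.1% and 61.7% of all genes passed (vehicle, edgeR). Of 6 tetrahydrobiopterin genes, 1 was higher and 3 lower in PVN than in ARC, 0 and 1 in PVN than in NTS, and 3 and 2 in ARC than in NTS (vehicle, edgeR). Spr, the last enzyme of cofactor synthesis, stood at 58.1, 32.6 and 61.3 CPM in PVN, ARC and NTS, and Qdpr, which recycles the cofactor, at 175, 150 and 278 CPM; the order of Gch1 (ARC first) was not theirs. Of 7 breakdown genes, 5 were lower and 1 higher in PVN than in NTS, and 4 lower and 1 higher in ARC than in NTS. Maob, the partner of Maoa, stood at 31.01, 41.7 and 75.7 CPM in the same order, and Aldh1a1, an aldehyde dehydrogenase found in some dopamine cells, at 10.4, 31.5 and 97.3 CPM. Cyb561, which regenerates ascorbate for Dbh inside vesicles, stood at 156, 113 and 147 CPM, so it did not share the regional order of Dbh. The low-affinity carrier Slc22a3 was highest in ARC (7.54 CPM), ahead of NTS (2.62) and PVN (2.22).

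Transcription factors named for catecholamine neurons divided ARC from NTS. Of 18 listed, 11 were tested, and 6 were higher and 5 lower in ARC than in NTS (vehicle, edgeR), where 61.7% of all genes passed. Dlx1, a factor of forebrain dopamine and GABA neurons, stood at 65.2 CPM in ARC, 11.4 in PVN and 0.05 in NTS, and Isl1 at 122, 2.21 and 0.223 CPM in the same order. Phox2a stood at 9.84 CPM in NTS, Tfap2b at 108 and Lmx1b, which is also a serotonin factor, at 41.4, while in vehicle ARC libraries all 3 lay at 0.149 CPM or less. Receptors took a different pattern. Of 8 adrenergic receptors tested, 4 were higher and 1 lower in PVN than in ARC, where 46% of all genes passed. In ARC 2 were higher and 5 lower than in NTS, where 61.7% of all genes passed. Adra1b stood at 23.1 CPM in PVN, 4.80 in ARC and 12.7 in NTS. Adra2a, an inhibitory receptor that noradrenaline neurons also carry, stood in the same order at 33.3, 19.9 and 72.05 CPM. Of 3 dopamine receptors tested, 1 was higher and 2 lower in PVN than in ARC, with Drd2 at 7.04, 22.4 and 19.4 CPM. The one that was higher was Drd5, a receptor that raises cyclic AMP, at 1.33 CPM in PVN, 0.218 in ARC and 10.6 in NTS, with log2 differences of 2.55 ± 0.53 between PVN and ARC, -3.00 ± 0.34 between PVN and NTS and -5.55 ± 0.45 between ARC and NTS (SE, edgeR adjusted p = 5.066e-05, 2.03e-11 and 7.09e-17).

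At 4 h after IP118/PY115, no member passed the treatment test in any region. In PVN 0 of the 6 members tested passed with edgeR, where 0.656% of 13409 genes did, and 2 had an unadjusted p under 0.05, as 9.34% of all genes had. In ARC 0 of 7 members passed and 0 had such a p, where 0% and 7.2% (971) of all genes did. In NTS 0 of 8 passed and 0 had such a p, where 0% and 5.8% (795) of all genes did. With DESeq2 0 members passed in each region, with 2, 1 and 1 unadjusted, where 1.56%, 0.438% and 0.482% of all genes passed and 9.98%, 7.49% and 6.06% had an unadjusted p under 0.05. Median log2 changes of the members were -0.05, -0.09 and 0.02, beside -0.02, 0.00 and 0.00 over all genes tested. No member's treated and vehicle ranges stood apart in any region, as for 0.00746%, 0% and 0% of all genes.

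**Figure D3:**
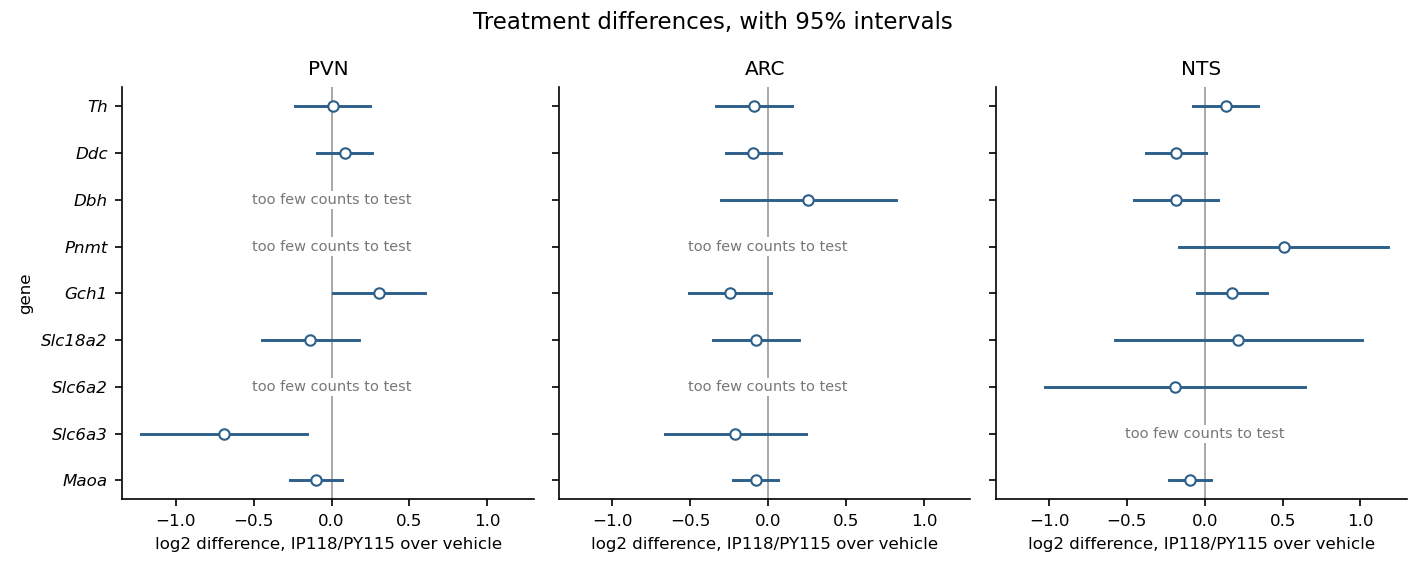
Log2 change of treated over vehicle with its 95% interval for each member tested in PVN, ARC and NTS (edgeR, 1 fit per region). No member passed at an adjusted p under 0.05, and Slc6a3 in PVN is the point farthest below 0, at -0.69.

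For most members the intervals were narrow. Th in PVN was 75.9 ± 11.1 CPM (lowest 58, median 72.6, highest 90.3) in treated libraries, a log2 change of 0.01 ± 0.12 (95% interval -0.23 to 0.25). In ARC it was 114 ± 19.7 CPM (lowest 76.6, median 117, highest 138) (-0.09 ± 0.12, -0.33 to 0.16) and in NTS 79.1 ± 15.6 CPM (lowest 50.04, median 79.7, highest 109) (0.13 ± 0.10, -0.08 to 0.34). Treated and vehicle ranges of Th lay over each other in all 3 regions. Ddc changed by 0.08 ± 0.09 in PVN, -0.09 ± 0.09 in ARC and -0.19 ± 0.09 (log2) in NTS. Its NTS libraries gave 238 ± 33.5 CPM (lowest 169.99, median 235, highest 285) under treatment (edgeR adjusted p = 0.893). Dbh in NTS gave 161 ± 34.2 CPM (lowest 97.96, median 158, highest 217) (-0.19 ± 0.13, 95% interval -0.46 to 0.09), with 1 library, treated replicate 4, below all vehicle values. Maoa moved by -0.10 ± 0.08, -0.08 ± 0.07 and -0.09 ± 0.07, with bounds between -0.27 and 0.07 over the 3 regions. Carriers were less precise in NTS, where Slc18a2 had 0.21 ± 0.38 (interval -0.58 to 1.01) and Slc6a2 -0.19 ± 0.40 (-1.02 to 0.65), so that changes of up to about 1 log2 unit were not detectable for them.

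Slc6a3 in PVN came nearest to the threshold. Its treated libraries gave 1.36 ± 0.509 CPM (lowest 0.728, median 1.29, highest 2.30), against 2.17 ± 0.889 CPM (lowest 1.06, median 1.92, highest 3.58) under vehicle. The highest vehicle values (replicates 9, 2, 10 and 4, from 2.80 to 3.58 CPM) lay above every treated library, and the rest overlapped. The log2 change was -0.69 ± 0.26 (95% interval -1.22 to -0.16, edgeR adjusted p = 0.315). Without the libraries numbered 1 it was -0.84 ± 0.26 (adjusted p = 0.0827), and without vehicle libraries 5553 to 5557 it was -0.52 ± 0.28 (adjusted p = 0.575). The ARC markers summed to 10.9 to 29.4 CPM in vehicle and 16 to 24.3 CPM in treated PVN libraries. In ARC itself Slc6a3 gave 30.2 ± 8.34 CPM (lowest 20.4, median 29.2, highest 44.1) under treatment (-0.21 ± 0.22, adjusted p = 0.875).

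Gch1 pointed in different directions by region without passing anywhere. Treated libraries gave 11.2 ± 1.61 CPM (lowest 9.62, median 10.9, highest 14.9) in PVN (0.30 ± 0.14, edgeR adjusted p = 0.508), 30.3 ± 5.71 CPM (lowest 22.2, median 31.01, highest 36.5) in ARC (-0.24 ± 0.13, 0.726) and 25.4 ± 3.59 CPM (lowest 17.02, median 25.5, highest 31.3) in NTS (0.17 ± 0.11, 0.999). In PVN 6 vehicle libraries lay below the lowest treated one. The test of the difference itself, the treatment change in PVN less that in ARC, gave 0.55 ± 0.19 (adjusted p = 0.561), the smallest p of any member. Over the 3 such comparisons of regions 0 of 9 members passed each with edgeR and with DESeq2, where 0.0487%, 0.0904% and 0% of all genes passed with edgeR. At an unadjusted p under 0.05 there was 1 member in each with edgeR, beside 6.21%, 4.28% and 3.76% of all genes, and 2, 1 and 1 with DESeq2. Over 14379 genes, 15, 20 and 10 passed with DESeq2, and 954, 649 and 571 had an unadjusted p under 0.05.

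Pnmt in PVN fell below the filter on low counts, so it has no value in the main treatment test. Treated libraries held 1 to 7 counts in 9 of 10, with 0 in treated replicate 1, and 36 counts in all. Vehicle libraries held 8 counts in replicate 1, 1 each in replicates 5 and 9, and 0 in the other 7. The ratio of treated to vehicle was 2.83 (95% interval 1.38 to 6.40, counting error only), and without the libraries numbered 1 it was 13.2 (3.40 to 113), from 36 counts in 9 of 9 libraries against 2 counts in 2 of 9. With no filter, edgeR gave a log2 change of 1.69 ± 0.69 (adjusted p = 0.407), and with no filter and without those libraries 3.30 ± 0.69 (adjusted p = 0.0045, where 2.28% of 17824 genes passed), an alternative chosen after seeing the data. The 2 libraries numbered 1 thus held the reverse of the pattern of the other 18, and the call rests on leaving them out. The NTS markers summed to at most 0.563 CPM in any vehicle PVN library and at most 0.199 CPM in any treated one. In NTS, where Pnmt is highest, the change was 0.51 ± 0.33 (interval -0.16 to 1.18, adjusted p = 0.999), and in ARC 4 of 9 vehicle and 3 of 10 treated libraries held any count.

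A ratio of 2 members within a library does not depend on how libraries are scaled. In the NTS the log2 ratio of Th to Dbh counts was -1.33 ± 0.27 (SD, n = 10, from -1.79 to -0.91) in vehicle and -1.02 ± 0.16 (n = 10, from -1.27 to -0.81) in treated libraries. All 10 treated libraries lay above the vehicle median, though the ranges overlapped. The difference of 0.31 had a two-sided permutation p = 0.00712 (100000 resamples). Leaving out each library in turn gave 0.26 to 0.35 (p = 0.00162 to 0.0125), and without the libraries numbered 1 it was 0.32 (exact permutation p = 0.00732), with 8 of 9 treated libraries above the vehicle median. It was the single ratio tested, chosen with earlier results of these data known. Neither gene passed alone, Th at 0.13 ± 0.10 and Dbh at -0.19 ± 0.13. Of the other members, set over Dbh without a test, Gch1 differed by 0.37 and Slc18a2 by 0.34, and Ddc by 0.01, Slc6a2 by 0.00 and Maoa by 0.10.

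**Figure D4:**
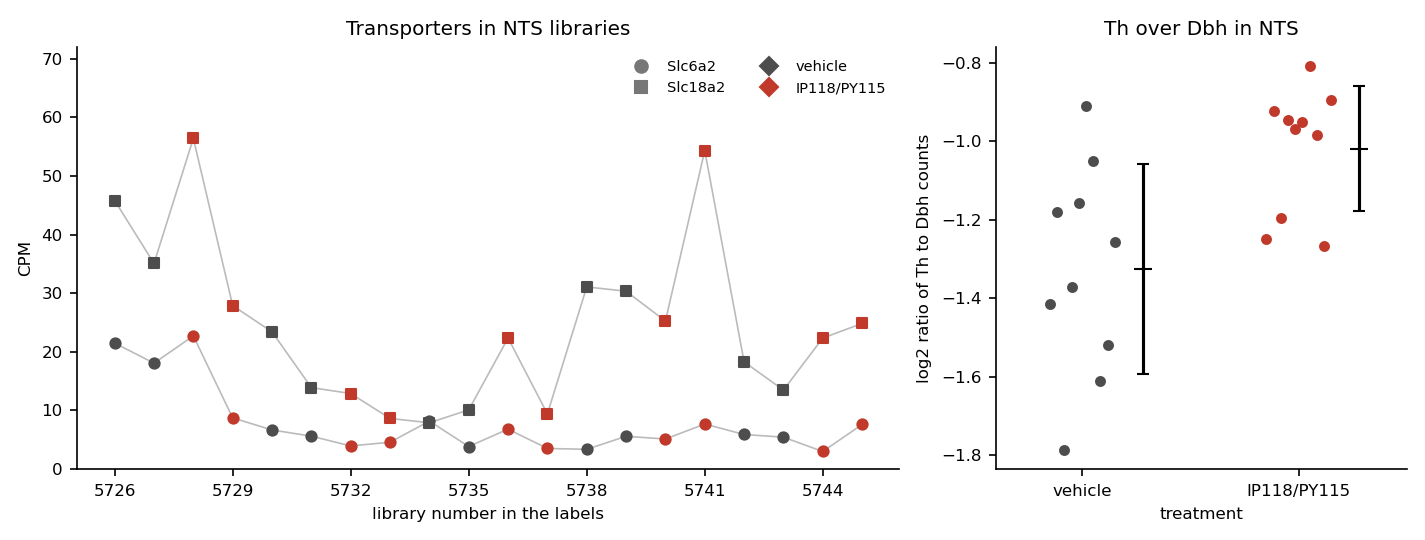
Left, CPM of Slc6a2 and Slc18a2 in the 20 NTS libraries by library number; right, log2 ratio of Th to Dbh counts per NTS library with the mean ± SD of each treatment. The 4 lowest library numbers hold the 4 highest Slc6a2 values, from 8.73 to 22.7 CPM, and the treated mean of the ratio is -1.02 against -1.33.

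The NTS libraries differed among themselves in ways that treatment did not follow. The 4 lowest library numbers, 5726 to 5729 (vehicle replicates 1 and 2 and treated replicates 1 and 2), held Slc6a2 at 21.5, 18.1, 22.7 and 8.73 CPM, and the other 16 held 3.0 to 8.19 CPM. The same 4 held Gcg, the gene of the GLP-1 precursor and a marker of the NTS, at 101, 47.4, 89.2 and 138 CPM, above the 0 to 46.03 CPM of the others. Slc18a2 was highest in treated replicates 1 and 8 (56.4 and 54.3 CPM) and lowest in vehicle replicate 5 (7.90 CPM). Treated replicate 4 had the lowest Dbh, Th and Ddc (97.96, 50.04 and 169.99 CPM), with 621 CPM of summed NTS markers, the lowest of the treated NTS libraries, and 7502 CPM of oligodendrocyte markers. Treated replicate 9 alone held serotonin markers well above the rest, Tph2 at 17.8 and Slc6a4 at 10.0 CPM.

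Members varied together from library to library in NTS and ARC, and no pair passed in PVN. Deviations of log2 CPM from the group mean were correlated for 64 pairs, 15 in PVN, 21 in ARC and 28 in NTS, with permutation within groups. Benjamini-Hochberg adjustment ran over the p-values of both coefficients for all 64 pairs together. Both Pearson's r and Spearman's rho passed for 0, 5 and 11 pairs, all positive, and the median r was 0.00, 0.31 and 0.45. No such count was made over pairs of all genes, so whether other genes pass as often was not tested. In ARC the passing pairs joined Th, Ddc, Slc18a2 and Slc6a3, which dopamine cells use. Th and Ddc had r = 0.87 and rho = 0.86 (19 libraries, permutation p = 1e-05 and 2e-05, adjusted p = 0.000768 for both), and r was 0.78 without the 2 libraries farthest out in Th. Th and Slc6a3 had r = 0.84 and rho = 0.80 (permutation p = 2e-05 and 0.00019, adjusted p = 0.000768 and 0.0027), and 0.84 without those 2.

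In NTS the passing pairs centred on Dbh, which took part in 6 of the 11 (with Th, Ddc, Gch1, Slc18a2, Slc6a2 and Maoa). Ddc and Dbh had r = 0.85 and rho = 0.82 (20 libraries, permutation p = 3e-05 for both, adjusted p = 0.000768), and r was 0.75 without the 2 libraries farthest out in Ddc. Dbh and Slc18a2 had r = 0.77 and rho = 0.76 (permutation p = 0.00017 and 0.00028, adjusted p = 0.0027 and 0.00337), and 0.69 without the 2 farthest in Dbh. Th and Dbh had r = 0.71 and rho = 0.62 (permutation p = 0.00076 and 0.00532, adjusted p = 0.00741 and 0.0243), and 0.51 without the 2 farthest in Th. Pairs with Slc6a2 rested on the 4 lowest library numbers: without them r with Dbh went from 0.61 to 0.33 and r with Slc18a2 from 0.62 to 0.24, and 7 NTS pairs passed. The same count of 7 was left without the libraries numbered 1, and 10 with scaling by library totals alone.

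**Figure D5:**
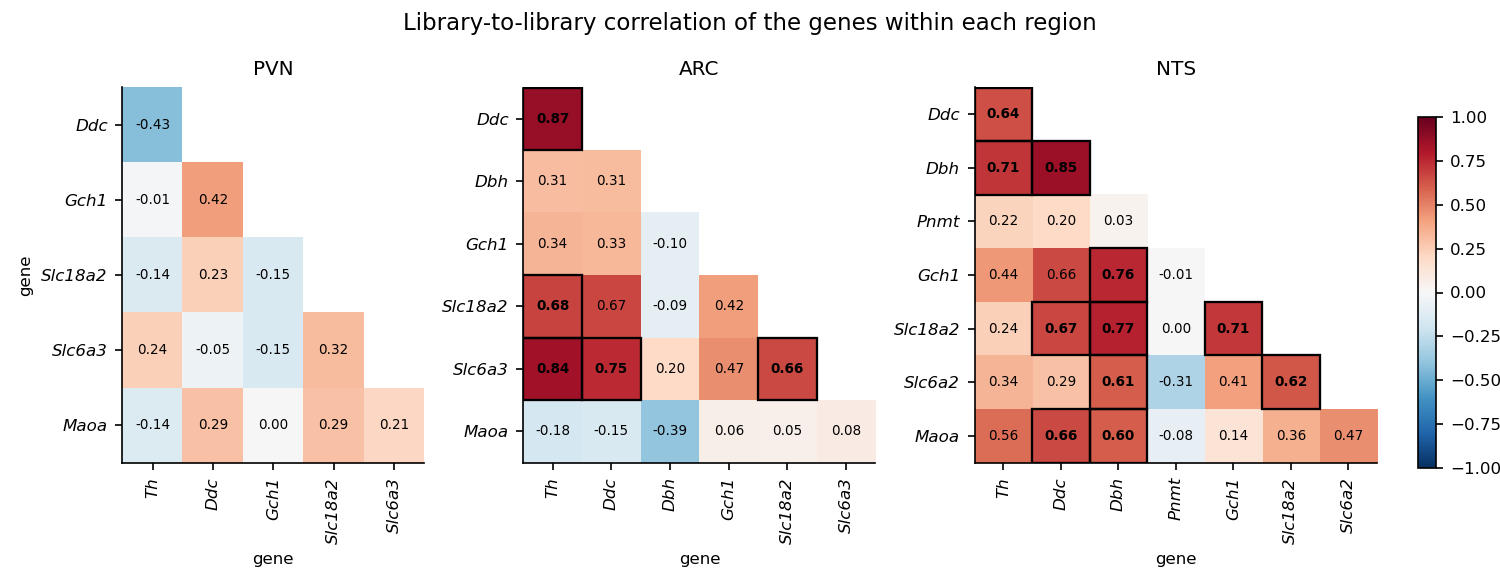
Pearson's r of each pair of members over the libraries of 1 region (log2 CPM, deviations from group means), with boxed bold values where both adjusted p-values were under 0.05. ARC holds 5 such pairs among Th, Ddc, Slc18a2 and Slc6a3, NTS holds 11, of which Ddc with Dbh is the highest at 0.85, and PVN none.

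Marker sums of the region moved with Slc18a2 in NTS. The summed NTS markers and Slc18a2 had r = 0.75 and rho = 0.79 over the 20 NTS libraries (permutation p = 0.00029 and 1e-04, adjusted p = 0.0087 and 0.006). Adjustment ran over both coefficients of 30 relations with marker sums together, which were added after seeing the data. Without the 2 farthest libraries r was 0.76. The NTS sum includes Gcg, which was at 47.4 to 138 CPM in the 4 lowest library numbers, and no relation with marker sums was computed without those 4. For Gch1 they were 0.61 and 0.51 (permutation p = 0.00534 and 0.0266, adjusted p = 0.04605 and 0.123) and for Slc6a2 0.61 and 0.49 (permutation p = 0.00547 and 0.0337, adjusted p = 0.04605 and 0.129), so that both passed by r alone. Dbh had 0.48 and 0.43 (permutation p = 0.0367 and 0.069, adjusted p = 0.129 and 0.188) and did not pass, nor did Th, with 0.00 and -0.09 (permutation p = 0.985 and 0.695, adjusted p = 0.985 and 0.851). Oligodendrocyte markers ran the other way, with r = -0.68 and rho = -0.71 for Ddc (permutation p = 0.00159 and 0.00071, adjusted p = 0.0239 and 0.0142) and -0.63 and -0.62 for Slc18a2 (permutation p = 0.00434 and 0.00614, adjusted p = 0.04605 for both). Without the 2 farthest libraries r was -0.77 for Ddc and -0.64 for Slc18a2. In ARC none of 14 relations passed, though treated replicate 2, lowest in Th, Ddc and Slc18a2 (76.6, 65.1 and 37.6 CPM), held 5779 CPM of oligodendrocyte markers and the lowest sum of ARC markers, 1575 CPM. The part of tissue content in the correlations between members was not tested.

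Genes ranked by likeness across libraries were taken from those with a mean of at least 5 CPM, by Spearman's rho of the same deviations. Nearest to Dbh in NTS among 11728 genes stood Cyb561 (rho = 0.88), which works beside Dbh in vesicles, then Gabre, a GABA-A receptor subunit (0.87), and AW551984 (0.85). Nearest to Ddc in ARC among 11447 genes over 19 libraries stood Cartpt (0.93), a satiety peptide gene, which was also nearest to Th (0.87), ahead of Ddc (0.86) and Cbln1 (0.85). Cbln1 led the list of Slc6a3 (0.82), followed by Ddc (0.82) and Th (0.80), while Rab3b, a gene of vesicle release, was nearest to Slc18a2 (0.83). In NTS Th was nearest to Ppat (0.80) and Slc6a2 to Pced1b (0.79). These ranks describe these libraries, which share depth and tissue content.

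Outside the members, 0 of the 34, 33 and 34 tested genes of the wider lists passed the treatment test in PVN, ARC and NTS by edgeR, and 4, 1 and 6 had an unadjusted p under 0.05, beside 9.34%, 7.2% and 5.8% of all genes. With DESeq2 0, 0 and 1 of them passed, with 5, 2 and 6 unadjusted, beside 9.98%, 7.49% and 6.06% of all genes, and the 1 was Sult1a1, a sulfotransferase that inactivates phenols, named here after its values were seen. It stood at 7.22 ± 3.59 CPM (SD, n = 10, lowest 2.98, median 6.71, highest 14.4) in vehicle and 13.01 ± 4.06 CPM (lowest 4.201, median 13.8, highest 19.4) in treated NTS libraries. In each region vehicle replicate 1 was the highest vehicle library (13.6, 9.08 and 14.4 CPM for PVN, ARC and NTS) and treated replicate 1 the lowest treated one (6.46, 2.69 and 4.201 CPM). For PVN, ARC and NTS the log2 change was 0.57 ± 0.22, 0.42 ± 0.22 and 0.88 ± 0.25 (edgeR adjusted p = 0.329, 0.721 and 0.260, DESeq2 0.0494 in NTS). Without the libraries numbered 1 it was 0.80 ± 0.20, 0.68 ± 0.19 and 1.14 ± 0.19 (edgeR adjusted p = 0.0223, 0.0806 and 0.00108). Sult1a1 and Pnmt in PVN thus share their dependence on the same libraries.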

How the data were processed

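The deposited table holds whole-number read counts per gene, which the authors made from polyA libraries. Per the submitters' processing notes, bcl2fastq 2.20.0.422, STAR 2.5.2a and the build GRCm38 were used, while the counting tool, its strand setting and the annotation are not given in the sources used here. Of 21935 rows, 21858 had a symbol and 2834 had no count. No 2 columns held identical values. Each library's group came from its title, which names treatment and region. Replicate numbers follow deposit order and name no animals. The libraries numbered 1 nonetheless hold like places in each region's run of library numbers. For PVN, ARC and NTS these are 5465, 5509 and 5726 (vehicle) and 5467, 5511 and 5728 (treated). Whether they came from the same animals was not tested. Nothing names separate animals per library, so p-values measure the spread between libraries.

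Genes were filtered with edgeR 4.0.16 (filterByExpr, minimum count 10, total 15) in R 4.3.3, scaled by TMM and tested with the quasi-likelihood test, within each region for treatment and in 1 fit of all 59 libraries for regions and interactions. Benjamini-Hochberg adjustment ran over all genes tested, with a threshold of 0.05. Correlations used log2(CPM + 0.5) and 100000 resamples. Intervals of summed counts are 95% exact intervals that cover counting error only. A group with 3 counts or fewer over all its libraries was taken as at the floor, but its ratios and region tests were kept. This applies to Slc6a2 in treated PVN and treated ARC libraries. The fits were tested on simulated counts.

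The members, wider lists, the Th to Dbh ratio and the rules were chosen with earlier results of these data known. All members are named. From the wider lists, genes called under treatment are named, and for regions genes were taken from the 3 largest called differences per list with at least 5 CPM in 1 region. Other settings tried were DESeq2 1.42.0, its size factors within edgeR, scaling by totals only, dropping the filter or asking for 20 counts in 9 libraries, the total as covariate, a block by position of the library number, and leaving out single libraries, the libraries numbered 1, those numbered 5553 to 5557 and those under 0.5 of their region's median total. The block, marker relations, ratios over Dbh other than Th, the pairs without the 4 lowest NTS numbers, and no filter together with leaving out the libraries numbered 1 were added after seeing the data. One gene of the wider and marker lists is not reported here, and the sums and counts of those lists leave it out.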

Additional observations from a re-analysis of the deposited data

Results flagged for a closer look

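In 6 of the 42 groups of a member, a region and a treatment that could be examined, 1 library stood farther from the rest than Dixon's 95% limit allows, and chance gives such a library in about 1 group in 20. In treated PVN libraries, replicate 6 was high in both Ddc, at 59.4 CPM against 40.5 to 47.2 CPM in the others, and Gch1, at 14.9 CPM against 9.62 to 12.3 CPM. Maoa in vehicle PVN stood at 106 CPM in replicate 10, against 61.2 to 78.1 CPM. In NTS, Gch1 stood at 17.03 CPM in treated replicate 4, against 24.1 to 31.3 CPM, the library that was also lowest in Dbh, Th and Ddc. Slc6a2 stood at 22.7 CPM in treated replicate 1, against 3.0 to 8.73 CPM, and vehicle replicates 1 and 2, of neighbouring library numbers, held 21.5 and 18.1 CPM. Pnmt in vehicle NTS stood at 2.61 CPM in replicate 9, from 31 counts, against 0.190 to 1.27 CPM.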

How the results depend on the processing

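Counts of members called, and the Th to Dbh ratio, kept their direction and side of the threshold in 117 of 118 other settings and in all 79 that left out 1 library. The exception was PVN treatment with no filter and without the libraries numbered 1, where the count went from 0 to 1 (Pnmt). Of single members, 901 of 923 values in other settings and 402 of 413 with 1 library left out did the same, and the cause of the exceptions was not tested. Th in PVN (0.0066) was -0.0716 without the libraries numbered 1 (-0.07 with no filter too), -0.039 without libraries 5553 to 5557, -0.0433 without small libraries, -0.0291 with the total as covariate, and -0.0473 to 0.0641 with 1 library left out. Without libraries 5553 to 5557, Maoa in PVN was 0.0064, Pnmt in PVN over ARC 0.665, and the interactions of Maoa 0.125 (PVN and ARC), 0.0993 (PVN and NTS) and -0.026 (ARC and NTS) and of Slc6a3 0.0337 (ARC and NTS). That of Slc6a3 was 0.0338 with DESeq2, and that of Maoa between PVN and NTS 0.0029 with library totals. Slc6a2 in NTS ranged from -0.57 to 0.075, above 0 without vehicle replicate 1 or 2. Gch1 in treated ARC over NTS passed with library totals (0.29, edgeR adjusted p = 0.0419) and with 20 counts in 9 libraries (0.27, 0.0482). Over all genes the PVN treatment count of 88 was 209 with DESeq2, 12 without libraries 5553 to 5557, 9 without small libraries (vehicle replicates 3 and 8), 6 with the total as covariate and 8 to 276 with 1 library left out. In ARC and NTS 0 became up to 85 and up to 92 when 1 library was left out. Library numbers lie within a run of 20 in each region, with treatments matching by position for 54 libraries (not 5553 to 5557), which the labels do not tie to animals. Deviations from group means over all genes were correlated between libraries at the same position in different regions. In PVN and ARC, PVN and NTS, and ARC and NTS, r was over 0.1 in 3 of 15, 2 of 17 and 5 of 17 pairs. The library of the first region correlated best with its own position for 4, 5 and 5. Median r was 0.014, 0.030 and 0.065 at the same position, and -0.004, -0.002 and -0.014 at other positions. Whether a position marks the same animal was not tested. The main fits took no pairs because the labels name none. A fit with the position as a replicate block was added after seeing the data. There 7, 8 and 9 members passed in vehicle and 7, 8 and 8 in treated region comparisons, and 0 in each interaction. Of the 14487 genes of that fit, 5734, 7660 and 8657 passed in vehicle and 7348, 8753 and 9505 in treated comparisons. In its interactions 0, 5 and 0 genes passed. Pnmt in PVN over ARC was then 0.4368 in vehicle libraries and 1.67 in treated ones (edgeR adjusted p = 0.0611), and interactions were 0.1617 (PVN and ARC), 0.1175 (PVN and NTS) and -0.0442 (ARC and NTS) for Maoa, 0.0148 for Slc18a2 and 0.1717 for Slc6a3 (both ARC and NTS). Depth limits Pnmt, Slc6a2 outside NTS and Dbh in PVN, where single counts set the values.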
